A study of Rattus norvegicus with 21 samples.

Results

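The 9 genes described here, Fasn, Acaca, Acacb, Acly, Srebf1, Thrsp, Mlxipl, Pnpla3 and Gpam, encode enzymes of fatty acid and triglyceride synthesis in liver and the factors that control them. They were chosen by gene symbol, with earlier results of these data known. All 9 were found among the 14218 genes measured, through 17 probe sets that are annotated with exactly 1 gene. Where a gene had several probe sets, the one with the highest mean over all arrays stands for it. Affymetrix arrays, 1 per liver sample, measured RNA from livers of male rats of the Harlan Sprague-Dawley stock. The treated groups received 2-ethylhexyl diphenyl phosphate, a plasticiser and flame retardant of the organophosphate ester class, at 61.2, 122.5, 244.6, 489.2 or 978.5 mg/kg (3 arrays each), and the vehicle group received corn oil without it (6 arrays). Every group was dosed by oral gavage, so that the vehicle rats also took in the oil, itself a triglyceride, and each rat received 4 daily doses before sampling of the left lobe of the liver on day 5. The rats' age is not given in the sources used here, and the protocol text speaks of 5 vehicle rats although 6 arrays carry the dose 0.

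The liver turns surplus carbohydrate into fat by de novo lipogenesis. ATP citrate lyase (Acly) cleaves citrate into cytosolic acetyl-CoA, the acetyl-CoA carboxylases (Acaca in the cytosol, Acacb at the mitochondrial surface) make malonyl-CoA, and fatty acid synthase (Fasn) joins these units into palmitate with electrons from NADPH. Insulin acts on the pathway through Srebf1, which encodes the transcription factor SREBP1, and glucose through Mlxipl, which encodes ChREBP. Thrsp, also called Spot 14, is a small protein of lipogenic tissues that answers to thyroid hormone and carbohydrate. Gpam, the mitochondrial acyltransferase, places the first fatty acid on glycerol phosphate, and Pnpla3 is a protein of the lipid droplet surface whose transcript is a target of SREBP1 in mouse and human liver. Transcripts of these genes are known to follow feeding, so their level in a liver depends on when an animal last ate.

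SREBP1 acts on promoters together with NF-Y, a factor that binds the box CCAAT, and promoters of some of the 9 genes are shown because the transcripts of Fasn and Acly, and less closely those of a few others, varied together between livers, as described below. RefSeq promoters on the rat build GRCr8, from 250 bases before to 50 bases after each annotated start, were at hand for 7 of the 9 genes, in 9 promoter rows. None was at hand for Fasn or Acaca, so neither was searched for a motif. In each sequence the capitals mark 1 CCAAT box, read as CCAAT or as ATTGG on the other strand, with 60 bases shown, 5′ to 3′ along the gene. Acly is shown for its close link to Fasn, Pnpla3 for its links to Fasn, Acly and Acaca, Srebf1 (at both annotated starts) and Mlxipl as regulators, and Thrsp as a gene known to answer to carbohydrate.
Acly, chr10:85963671-85963730 (minus strand): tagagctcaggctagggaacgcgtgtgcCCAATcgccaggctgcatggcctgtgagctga
Pnpla3, chr7:117173436-117173495 (plus strand): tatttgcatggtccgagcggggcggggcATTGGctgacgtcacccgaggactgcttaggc
Srebf1, chr10:45529302-45529361 (minus strand): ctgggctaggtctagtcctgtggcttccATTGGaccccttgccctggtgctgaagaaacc
Srebf1, chr10:45519087-45519146 (minus strand): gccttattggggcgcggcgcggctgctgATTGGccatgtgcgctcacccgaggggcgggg
Mlxipl, chr12:27213755-27213814 (minus strand): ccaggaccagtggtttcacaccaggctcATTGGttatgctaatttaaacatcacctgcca
Thrsp, chr1:161139054-161139113 (minus strand): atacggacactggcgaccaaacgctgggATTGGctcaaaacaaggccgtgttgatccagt
The capitals begin at position -71 from the start in Acly, -64 in Pnpla3, -169 and -108 in Srebf1, -126 in Mlxipl and -121 in Thrsp, where position -1 is the base before the start. The second Srebf1 window holds a further box, left in lower case, which begins at -131. All 7 genes with a promoter held at least 1 CCAAT box, Gpam and Acacb among them, but so did 37.5% of the 33469 promoters in the table. The sterol element TCACNCCAC was found in 0 of the 7 and in 1.12% of all promoters, and the E-box CACGTG in 0 of the 7 and in 6.42% of all. Both strands were searched, and the motifs do not overlap one another in their letters. These are matches of letters within a window, and they say nothing about binding.

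The values are log2 signals as the authors deposited them, and a difference of 1 on this scale is a 2-fold change in signal. Array medians lay between 6.33 and 6.41, and each array's correlations with the rest averaged between 0.987 and 0.994. The liver label fitted its markers: the hepatocyte transcripts Alb, Ttr and Apoa1 averaged 15.34, 14.85 and 14.17, where the median over all genes was 7.52. As fat tissue also expresses lipogenic genes, adipocyte markers were examined, and the hormones Adipoq (adiponectin) and Lep (leptin) averaged 4.92 and 5.04. The log2 summed signal of 8 adipocyte markers lay between 10.59 and 10.68 at 978.5 mg/kg and between 10.72 and 11.38 in the vehicle, and the 3 arrays of that dose lay below all vehicle arrays in it. Of the 8 markers 0 passed at any dose and 1, the secreted protease Cfd, fell in the dose trend (limma adjusted p = 0.0478), a call that did not hold without any of 14 single arrays, up to a limma adjusted p of 0.114 without replicate 1 at 978.5 mg/kg. At 978.5 mg/kg the means of 6 of the 8 lay below the vehicle and those of 2 above it. Cfd and Fabp4 lay lowest, at -0.58 and -0.40, while the hormones Adipoq and Lep differed by 0.08 and -0.005. The part of such markers in the levels of the 9 genes was not tested. In whole liver, fewer cells of a type and less RNA per cell cannot be told apart.

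At no dose did any of the 9 genes pass the test against the vehicle. Each gene was tested with limma over all genes, with an adjusted p of at most 0.05 as the threshold. At 61.2 mg/kg 0 of 9 passed, against 0.0141% of all genes. At 122.5 mg/kg 0 of 9 passed, against 0.113% of all genes, at 244.6 mg/kg 0 of 9 against 2.95%, and at 489.2 mg/kg 0 of 9 against 2.9%. At 978.5 mg/kg, where 10.2% of all genes passed, the count was again 0 of 9. By direction, 2.52% of all genes were called higher and 0.429% lower at 244.6 mg/kg, 1.51% and 1.39% at 489.2 mg/kg, and 6.18% and 4.07% at 978.5 mg/kg, beside 0 of the 9 in either direction. By unadjusted limma p under 0.05 the counts from the lowest to the highest dose were 0, 1, 0, 2 and 1 of 9, beside 5.48%, 6.06%, 14%, 14.5% and 24.7% of all genes. With so few genes, counts of 0 to 2 do not stand apart from these shares.

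Most means nevertheless lay above the vehicle. The mean was higher than in the vehicle for 7 of the 9 genes at 61.2 and at 122.5 mg/kg, for 8 at 244.6 mg/kg, for 7 at 489.2 mg/kg and for 6 at 978.5 mg/kg. The median log2 difference of the 9 genes was 0.21, 0.12, 0.23, 0.22 and 0.16 in the same order of doses, where that of all genes lay between -0.02 and 0.01. These comparisons share the 6 vehicle arrays, so the counts are not independent of one another. Single arrays weighed heavily in them: of the 45 differences of a gene at a dose, 42 moved by more than 1.5 times and 14 changed sign when some 1 of the 21 arrays was left out. In no gene at any dose did all 3 treated arrays lie beyond all 6 vehicle arrays. Of all genes, 2.37%, 3.05%, 8.57%, 6.42% and 13.5% separated in this way at the 5 doses, and counts of 0 among 9 genes do not stand apart from these shares. The standard errors of the 9 genes ranged from 0.12 to 0.32, and the median over all genes was 0.10.

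**Figure D1:**
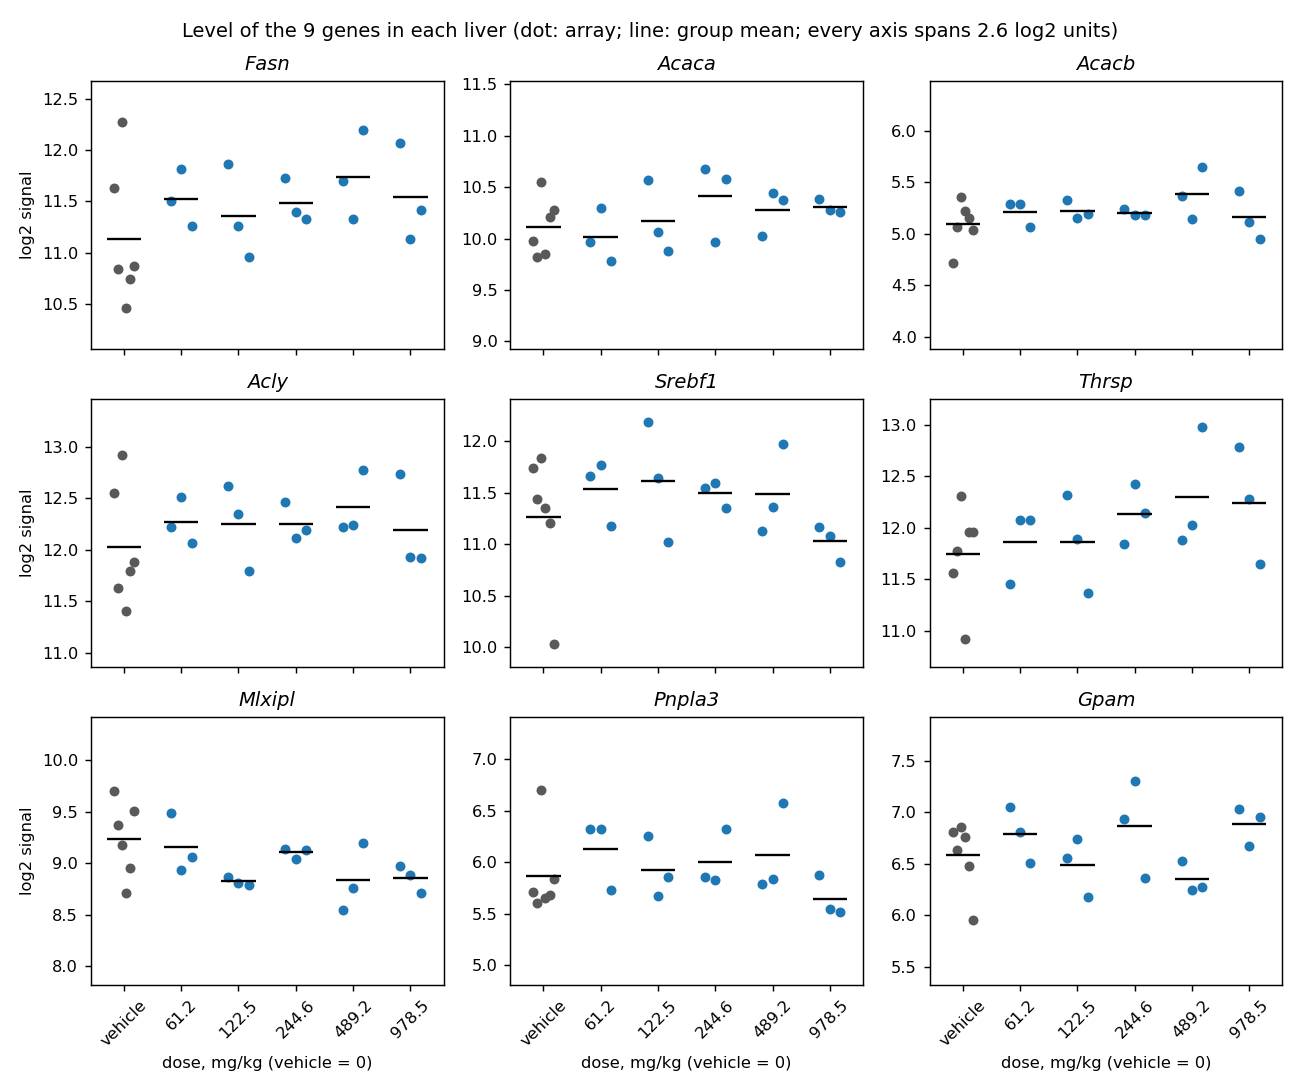
Log2 signal (y axis) of the 9 genes in each of the 21 livers by dose in mg/kg (x axis, vehicle at 0); dots are arrays, horizontal lines group means, and every panel spans the same number of log2 units. The treated arrays of each gene overlap the vehicle arrays at every dose, and vehicle values of Fasn run from 10.47 to 12.27.

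Fasn, which carries out the synthesis of palmitate itself, varied more between vehicle rats than between doses. In the vehicle its log2 signal ran from 10.47 through a median of 10.86 to 12.27, and the treated arrays stood at 11.50, 11.82 and 11.26 at 61.2 mg/kg, at 11.86, 11.26 and 10.96 at 122.5 mg/kg, at 11.73, 11.40 and 11.33 at 244.6 mg/kg, at 11.70, 11.33 and 12.19 at 489.2 mg/kg and at 12.07, 11.14 and 11.42 at 978.5 mg/kg. All 15 treated arrays lay inside the range of the vehicle arrays. The widest difference was at 489.2 mg/kg, 0.60 ± 0.31 (SE, n = 3 against 6, 1.52-fold, 95% interval 0.961 to 2.39-fold, limma adjusted p = 0.405). At 978.5 mg/kg it was 0.40 ± 0.31 (1.32-fold, 95% interval 0.839 to 2.09-fold, limma adjusted p = 0.461), so that a 2-fold rise lies within the interval. Vehicle replicate 3 held the highest Fasn signal, and without it the difference was 0.83 at 489.2 mg/kg and 0.63 at 978.5 mg/kg (limma adjusted p = 0.106 and 0.148). Without replicate 1 of the highest dose, which held 12.07, it was 0.14 there.

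Acly, which supplies the acetyl-CoA, followed Fasn closely. In the vehicle its arrays ran from 11.41 through a median of 11.84 to 12.92, at the 3 lower doses they stood between 11.79 and 12.62, at 489.2 mg/kg at 12.22, 12.24 and 12.78, and at 978.5 mg/kg at 12.74, 11.93 and 11.92. Every treated array lay within the vehicle range. The difference was 0.38 ± 0.27 at 489.2 mg/kg (95% interval 0.876 to 1.94-fold, limma adjusted p = 0.576) and 0.16 ± 0.27 at 978.5 mg/kg (95% interval 0.753 to 1.66-fold, limma adjusted p = 0.765). The value at 978.5 mg/kg was 0.34 without vehicle replicate 3 and changed sign, to -0.11, without replicate 1 of that dose. Of the variance of Acly, 10.6% lay between the 6 groups, the smallest share among the 9 genes, and the median over all genes was 30.6%.

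The carboxylases differed little from the vehicle. Acaca, the cytosolic form, stood at 10.38, 10.28 and 10.26 at 978.5 mg/kg, against 9.82 to 10.55 in the vehicle with a median of 10.09. Those treated arrays lay close together in the upper part of the vehicle range, and their difference was 0.19 ± 0.18 (95% interval 0.881 to 1.49-fold, limma adjusted p = 0.546). Its widest difference was at 244.6 mg/kg, with arrays at 10.68, 9.97 and 10.58, of which 2 lay above all vehicle arrays (0.29 ± 0.18, limma adjusted p = 0.518). The signal of Acacb was low, with a mean over all arrays of 5.2, at percentile 15.1 of all genes. Acacb, whose malonyl-CoA restrains the entry of fatty acids into mitochondria, stood at 5.37, 5.14 and 5.65 at 489.2 mg/kg, against 4.72 to 5.36 in the vehicle with a median of 5.11. There 2 of 3 arrays lay above all vehicle arrays, and the difference was 0.30 ± 0.13 (1.23-fold, limma adjusted p = 0.262). At 978.5 mg/kg its arrays at 5.42, 5.12 and 4.95 spread across the vehicle range (0.07 ± 0.13, limma adjusted p = 0.778), with a difference of -0.06 without replicate 1.

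Thrsp had the highest mean difference of the 9 genes at 978.5 mg/kg. Its arrays there stood at 12.78, 12.28 and 11.65, against a vehicle range of 10.92 to 12.31 with a median of 11.86. At 489.2 mg/kg they stood at 11.88, 12.03 and 12.98, so that at both doses 1 array lay above all vehicle arrays and the other 2 among them. The difference was 0.49 ± 0.30 at 978.5 mg/kg (1.4-fold, 95% interval 0.912 to 2.16-fold, limma adjusted p = 0.329) and 0.55 ± 0.30 at 489.2 mg/kg (1.46-fold, limma adjusted p = 0.424). At 244.6 mg/kg it was 0.39 ± 0.30, and at the lower doses, 61.2 and 122.5 mg/kg, 0.12 ± 0.30 each. In the trend on dose rank, from 0 for the vehicle to 5 for the highest dose, the slope of Thrsp was 0.11 ± 0.05 per rank (limma adjusted p = 0.13). Vehicle replicate 4, at 10.92, was the lowest of all arrays in this gene. The difference was 0.22 at 978.5 mg/kg without replicate 1 of that dose and 0.20 at 489.2 mg/kg without replicate 3 of that one.

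Among the regulators, Srebf1 showed no steady course over the doses. In the vehicle it ran from 10.03 through a median of 11.39 to 11.84. Arrays stood at 11.66, 11.77 and 11.18 at 61.2 mg/kg, at 12.19, 11.64 and 11.02 at 122.5 mg/kg, at 11.55, 11.59 and 11.35 at 244.6 mg/kg, at 11.13, 11.36 and 11.97 at 489.2 mg/kg and at 11.17, 11.08 and 10.83 at 978.5 mg/kg. The means lay above the vehicle mean at the 4 lower doses, with differences between 0.22 and 0.35, and below it at 978.5 mg/kg, with a difference of -0.24 ± 0.30 (95% interval 0.545 to 1.31-fold, limma adjusted p = 0.67). The vehicle mean rests on replicate 6, whose signal of 10.03 lay 1.24 below the group mean. Without that array the difference was -0.49 at 978.5 mg/kg (limma adjusted p = 0.166) and -0.03 at 489.2 mg/kg. The direct contrast of 978.5 with 61.2 mg/kg, which uses no vehicle array, gave -0.51 ± 0.35 (limma adjusted p = 0.544), in a comparison where 0 of the 9 genes passed against 2.26% of all genes (0 of 9 and 14.9% by unadjusted p under 0.05).

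Mlxipl was the only one of the 9 genes with a mean below the vehicle at all 5 doses. In the vehicle its arrays ran from 8.71 through a median of 9.27 to 9.70, with replicate 4 the lowest. They stood at 9.49, 8.93 and 9.06 at 61.2 mg/kg, at 8.87, 8.81 and 8.79 at 122.5 mg/kg, at 9.14, 9.04 and 9.13 at 244.6 mg/kg, at 8.54, 8.76 and 9.20 at 489.2 mg/kg and at 8.97, 8.88 and 8.71 at 978.5 mg/kg. At the highest dose 1 array lay just below all vehicle arrays and the others in the lower part of the vehicle range. The difference was -0.38 ± 0.17 at 978.5 mg/kg (limma adjusted p = 0.181), -0.40 ± 0.17 at 489.2 mg/kg (limma adjusted p = 0.278) and -0.41 ± 0.17 at 122.5 mg/kg (limma adjusted p = 0.752). The trend over dose ranks gave -0.08 ± 0.03 per rank (limma adjusted p = 0.0936). Without vehicle replicate 4 the slope was -0.10 and passed (limma adjusted p = 0.032). In the trend 0 of the 9 genes passed, against 11.2% of all genes (2 of 9 and 24.5% by unadjusted limma p under 0.05), and in the F test over the 6 groups 0 of 9, against 5.62%.

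**Figure D2:**
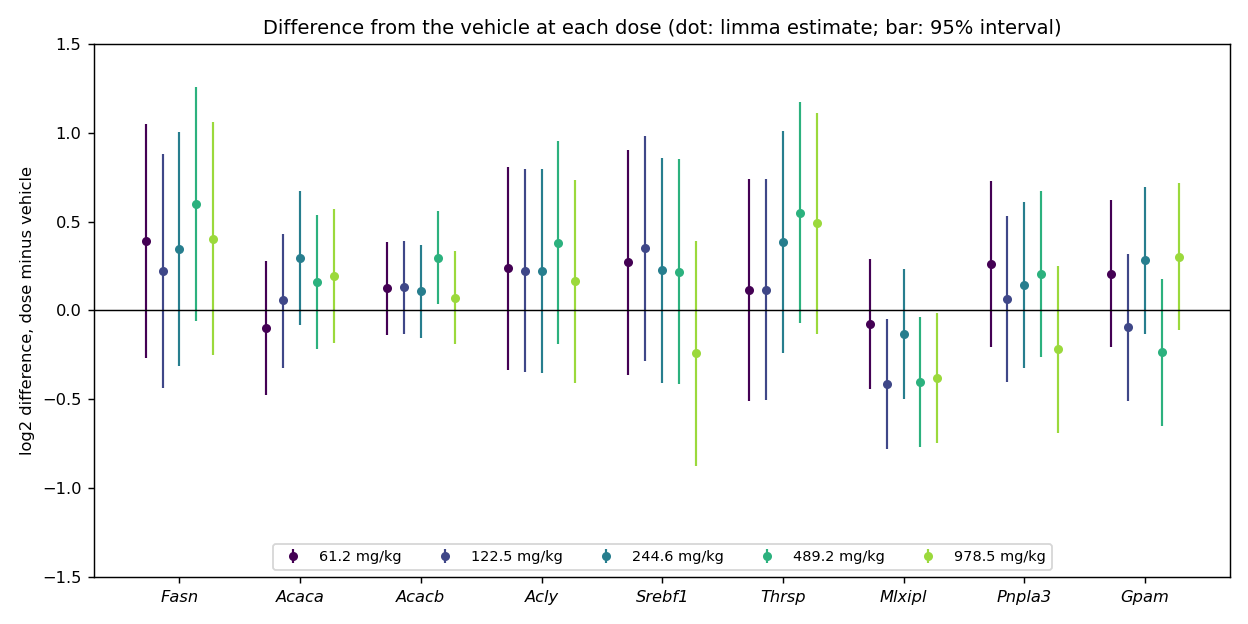
Log2 difference from the vehicle (y axis) of each of the 9 genes (x axis) at the 5 doses; dots are limma estimates from 3 arrays against 6 and bars their 95% intervals, not adjusted for the number of tests. The intervals of Mlxipl at 122.5, 489.2 and 978.5 mg/kg and of Acacb at 489.2 mg/kg do not cross 0, and no gene passed after adjustment over all genes.

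Gpam and Pnpla3 stand at the glycerolipid end of the pathway. Gpam stood at 7.03, 6.67 and 6.95 at 978.5 mg/kg, against 5.95 to 6.86 in the vehicle with a median of 6.69, and 2 of 3 arrays lay above all vehicle arrays (0.30 ± 0.20, 95% interval 0.926 to 1.64-fold, limma adjusted p = 0.368). At 489.2 mg/kg its arrays at 6.53, 6.24 and 6.27 lay in the lower part of the vehicle range, with a difference of -0.24 ± 0.20 (limma adjusted p = 0.659). The sign of this probe set thus turned between the highest doses. A second Gpam probe set lay above the vehicle at both, by 0.10 ± 0.13 at 489.2 mg/kg and 0.33 ± 0.13 at 978.5 mg/kg. The signal of Pnpla3 was rather low, with a mean over all arrays of 5.93, at percentile 24.9 of all genes. Pnpla3 stood at 5.87, 5.54 and 5.52 at 978.5 mg/kg, against 5.60 to 6.70 in the vehicle with a median of 5.69. At that dose 2 of 3 arrays lay below all vehicle arrays, with a difference of -0.22 ± 0.22 (limma adjusted p = 0.589), and of -0.05 without vehicle replicate 3, which stood at 6.70 and apart from the others. Its means lay above the vehicle mean at the 4 lower doses, by 0.06 to 0.26. The contrast of 978.5 with 61.2 mg/kg gave -0.48 ± 0.26 for Pnpla3 (limma adjusted p = 0.407).

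Several of the genes have further probe sets, which did not always give the same size. The other probe sets of Thrsp gave larger estimates than its main one, 0.74 ± 0.33 and 0.71 ± 0.32 at 978.5 mg/kg (limma adjusted p = 0.203 and 0.215 over all probe sets) and slopes of 0.16 and 0.15 per rank (limma adjusted p = 0.0734 and 0.0714). The second Fasn probe set gave 0.13 ± 0.36 at 978.5 mg/kg, where the main one gave 0.40, while both gave about the same at 489.2 mg/kg (0.61 and 0.60). The second Acaca probe set gave 0.02 ± 0.11 at 244.6 mg/kg and 0.05 ± 0.11 at 978.5 mg/kg, where the main one gave 0.29 and 0.19, and at 61.2 mg/kg the signs differed (0.15 and -0.10). The second Srebf1 probe set gave -0.09 ± 0.26 at 978.5 mg/kg, where the main one gave -0.24. For Gpam the second probe set gave 0.33 ± 0.13 at 978.5 mg/kg (limma adjusted p = 0.139) and 0.10 ± 0.13 at 489.2 mg/kg, where the main one gave -0.24. Among the Pnpla3 probe sets, 1 spread far more than the others: its arrays at 122.5 mg/kg ran from 4.63 to 7.92, and its difference at 978.5 mg/kg was -0.65 ± 0.56 (limma adjusted p = 0.571). Of the 17 probe sets 0 passed the test at any dose.

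The spread between livers of the same group was wide for these genes. The residual SD of the log2 signal within groups was 0.50 for Fasn, 0.48 for Srebf1, 0.47 for Thrsp and 0.44 for Acly, at percentiles 98.7, 98.6, 98.5 and 97.9 of all genes. It was 0.35 for Pnpla3, 0.31 for Gpam, 0.28 for Acaca, 0.27 for Mlxipl and 0.19 for Acacb, and the median over all genes was 0.14. From the lowest to the highest array the signal of Srebf1 spanned 4.48-fold, that of Thrsp 4.17-fold and that of Fasn 3.47-fold, while Acaca and Acacb spanned 1.86-fold and 1.91-fold.

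Within some groups, single livers were high or low in most of the 9 genes. Replicate 1 at 122.5 mg/kg and replicate 1 at 978.5 mg/kg lay above their group mean in 9 of 9 genes, and replicate 3 at 122.5 mg/kg lay below it in 9 of 9. Vehicle replicate 3 lay above the vehicle mean in 8 of 9 genes, by a median of 0.56 and by 1.13 in Fasn. Replicate 3 at 489.2 mg/kg was above its group mean in 8 of 9, while both other arrays of that dose were below it in 8 of 9. Deviations from 3 arrays sum to 0 in each gene, so the arrays of a group are not independent in these counts. The labels used here give no date, feeding time or batch for any array.

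**Figure D3:**
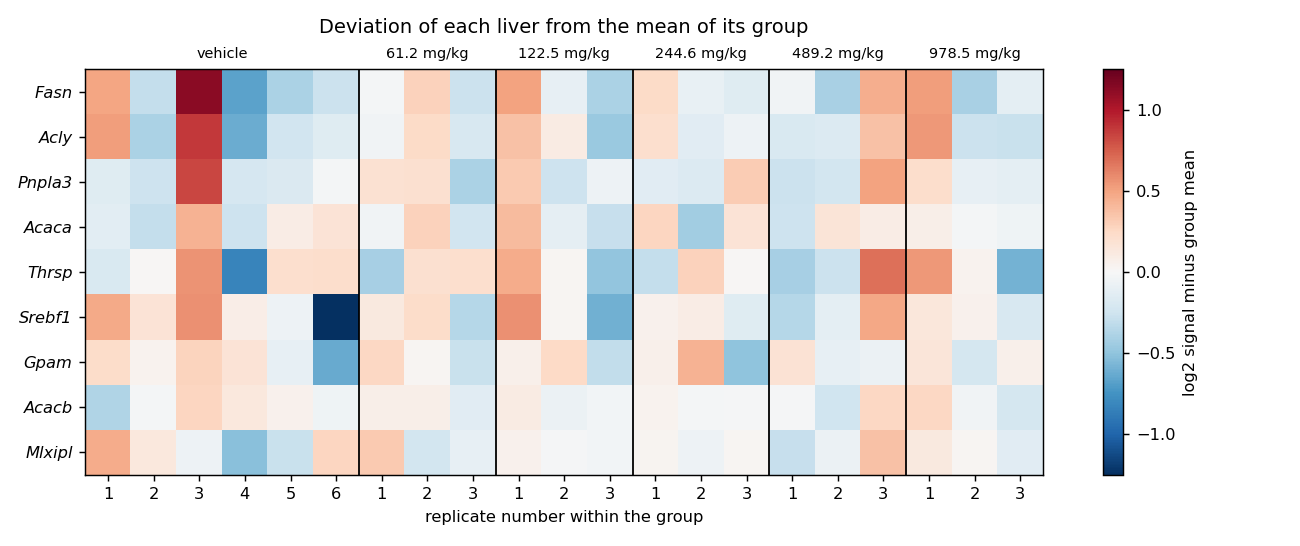
Deviation of each liver from the mean of its group, as log2 signal (colour, red above and blue below), for the 9 genes (rows) in the 21 arrays (columns, by group and replicate number). Vehicle replicate 3 is above its group mean in 8 of the 9 genes and vehicle replicate 6 is 1.24 below it in Srebf1.

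Fasn and Acly gave the closest pair. Over the 21 arrays, the Pearson r of their deviations from the group means was 0.96 and Spearman's rho 0.89 (permutation p = 1e-05, the smallest that 100000 permutations within groups can give, and 3e-05; adjusted over 36 pairs 0.00036 and 0.00108). It was 0.94 without the 2 arrays farthest from the median of Fasn, 0.93 in the 15 treated arrays and 0.98 in the 6 vehicle arrays. Of the 36 pairs among the 9 genes, 32 had a positive r, with a median of 0.40 and a range from -0.19 to 0.96.

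Of those pairs, 6 passed 0.05 after adjustment by Pearson's r, all of them positive, and 1 of them, Fasn with Acly, by Spearman's rho. Pnpla3 went with Fasn (r = 0.74, adjusted permutation p = 0.0311, rho 0.55), with Acly (r = 0.70, adjusted permutation p = 0.0311, rho 0.58) and with Acaca (r = 0.67, adjusted permutation p = 0.0327, rho 0.67). Acaca also went with Acly (r = 0.63, adjusted permutation p = 0.0327, rho 0.59). Srebf1 and Gpam gave r = 0.66 (adjusted permutation p = 0.0425, rho 0.51), which was 0.36 in the treated arrays and 0.98 in the vehicle arrays, where replicate 6 was the lowest in both genes. Without the 2 farthest arrays r was 0.55, 0.51, 0.52, 0.47 and 0.37 for these 5 pairs, and after adjustment none of the 5 passed. For Mlxipl r with the other 8 genes lay between -0.10 and 0.44.

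**Figure D4:**
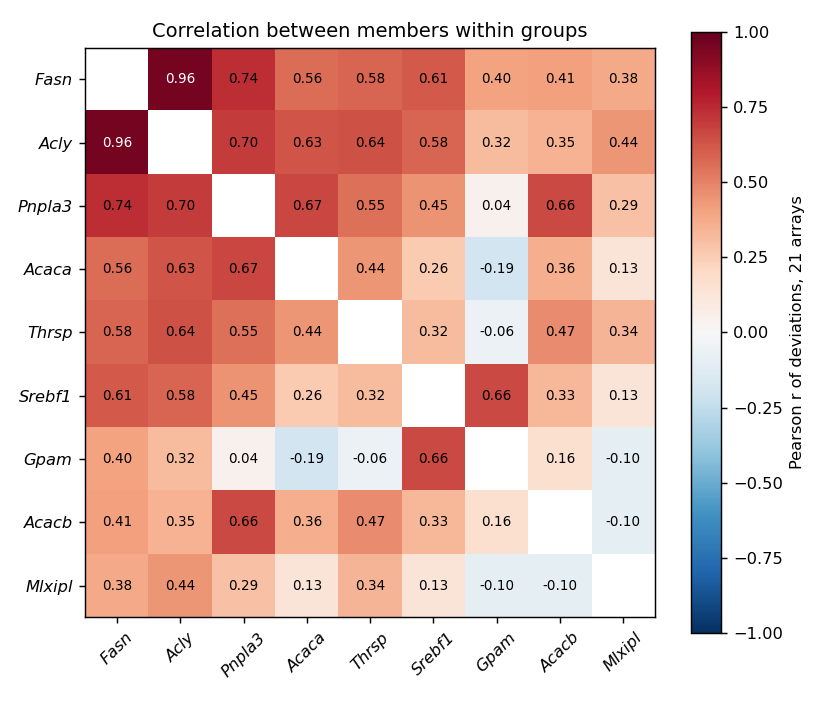
Pearson r between the within-group deviations of the 9 genes over 21 arrays (colour and printed value, rows and columns are genes). Fasn and Acly stand at 0.96, and Gpam has values near 0 or below with Pnpla3, Acaca, Thrsp and Mlxipl.

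Outside the 9 genes, the transcripts closest in level to Fasn and Acly over the 21 arrays, among 7103 genes with a mean above the median, were the same pair. Mid1ip1, a relative of Thrsp that binds acetyl-CoA carboxylase, had r = 0.83 with Fasn and 0.82 with Acly, and Pgd, an enzyme of the pentose phosphate pathway that makes NADPH, 0.83 and 0.84. Mid1ip1 itself stood at 0.33 ± 0.32 at 978.5 mg/kg (limma adjusted p = 0.565) and 0.95 ± 0.32 at 61.2 mg/kg (limma adjusted p = 0.788). The closest transcripts were Bcar1 and Nr2f6 for Srebf1 (r = 0.90 and 0.84), Mrps6 and Trmt112 for Acaca (0.83 and 0.76), Apbb3 and Klc1 for Mlxipl (0.82 each) and Sub1 and Uox for Thrsp (0.78 and 0.77). For Gpam they were Kmt2e and Rab8b (r = 0.79 and 0.77), for Pnpla3 Pcyt2 and Cactin (0.74 and 0.72) and for Acacb Ninj1 and Chrac1 (0.71 each). All these values share arrays and normalisation and are picked as the highest of many, so they are descriptions.

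While the 9 genes did not pass, single genes around them in the pathway did at 978.5 mg/kg. The lists set beside the 9 genes, here and below, were chosen with earlier results of these data known, so their counts are descriptions. Of 14 genes listed around the supply of NADPH and acetyl-CoA, 3 rose and 1 fell, where 6.18% of all genes rose and 4.07% fell at that dose. The list also holds genes of other roles, such as Cs, Mcat, Oxsm, Mid1ip1, Prkaa1 and Prkaa2. Me1, malic enzyme, which makes NADPH, stood at 10.78, 10.24 and 10.34, all above the vehicle range of 8.28 to 9.25 (1.57 ± 0.19, 2.98-fold, limma adjusted p = 2.96e-05), and had also risen at 244.6 mg/kg (1.51 ± 0.19, limma adjusted p = 0.00017). The acetate-activating enzymes moved apart, the cytosolic Acss2 with a rise of 0.64 ± 0.18 and the mitochondrial Acss1 with a fall to 4.64, 4.71 and 4.86, against 4.99 to 5.35 in the vehicle (limma adjusted p = 0.0309 and 0.0105). These Acss1 signals are low, where the median over all genes was 7.52. The call of Acss2 was lost without any of 5 single arrays, most clearly replicate 1 of that dose (limma adjusted p = 0.206), and that of Acss1 without the same replicate (limma adjusted p = 0.0648). The acetoacetate-activating enzyme Aacs rose at 489.2 mg/kg (1.42 ± 0.32, limma adjusted p = 0.019), and did not pass when replicate 1 or 3 of that dose was left out (limma adjusted p = 0.116 and 0.0752), and stood at 1.02 ± 0.32 at 978.5 mg/kg (limma adjusted p = 0.0517). The list's median difference was 0.14, where that of the 9 genes was 0.16 and that of all genes -0.02.

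Of 11 measured genes of desaturation and elongation, whose enzymes act on palmitate or on longer and polyunsaturated chains, 1 rose and 2 fell at 978.5 mg/kg, with a median of -0.02, and the others did not pass. At that dose 6.18% of all genes rose and 4.07% fell. Scd, the desaturase that turns saturated into monounsaturated fatty acids, stood at 8.53, 8.48 and 7.57, all below the vehicle range of 9.76 to 12.26 (-3.004 ± 0.592, 8.02-fold lower, limma adjusted p = 0.00272). Elovl6, which lengthens palmitate, stood at 9.80, 8.27 and 7.99, against 6.50 to 8.14 in the vehicle, and rose by 1.38 ± 0.33 (2.6-fold, limma adjusted p = 0.0114). That call rests on replicate 1, without which the difference was 0.83 (limma adjusted p = 0.112). Elovl5, an elongase of polyunsaturated fatty acids, fell by 0.42 ± 0.08 (limma adjusted p = 0.00185), with all 3 arrays below all vehicle arrays. The mean of its probe sets gave -0.29 and did not pass (limma adjusted p = 0.0718).

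Of 20 measured genes of triglyceride assembly and export, to which Gpam leads, 2 rose and 0 fell, with a median of -0.001, a count near the share of all genes called at that dose (10.2%). They were Lpin2, a phosphatidate phosphatase, at 9.59, 9.50 and 9.67, against 8.56 to 9.19 in the vehicle (0.74 ± 0.12, limma adjusted p = 0.000705), and Mttp, which loads lipid onto lipoproteins (0.28 ± 0.09, limma adjusted p = 0.0483). The call of Mttp was lost without any of 15 single arrays, at most with a limma adjusted p of 0.205 without replicate 3. Of 16 genes of the lipid droplet and of lipolysis, 2 rose and 5 fell, with a median of -0.16, beside 6.18% of all genes that rose and 4.07% that fell. The droplet protein Cidea rose to 10.82, 10.92 and 9.72, against 7.56 to 8.74 in the vehicle (2.15 ± 0.40, limma adjusted p = 0.00176). The droplet coat protein Plin2 fell by 1.004 ± 0.136 and Angptl4, an inhibitor of lipoprotein lipase, by 1.56 ± 0.20, with every array below all vehicle arrays (limma adjusted p = 9.37e-05 and 4.49e-05).

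**Figure D5:**
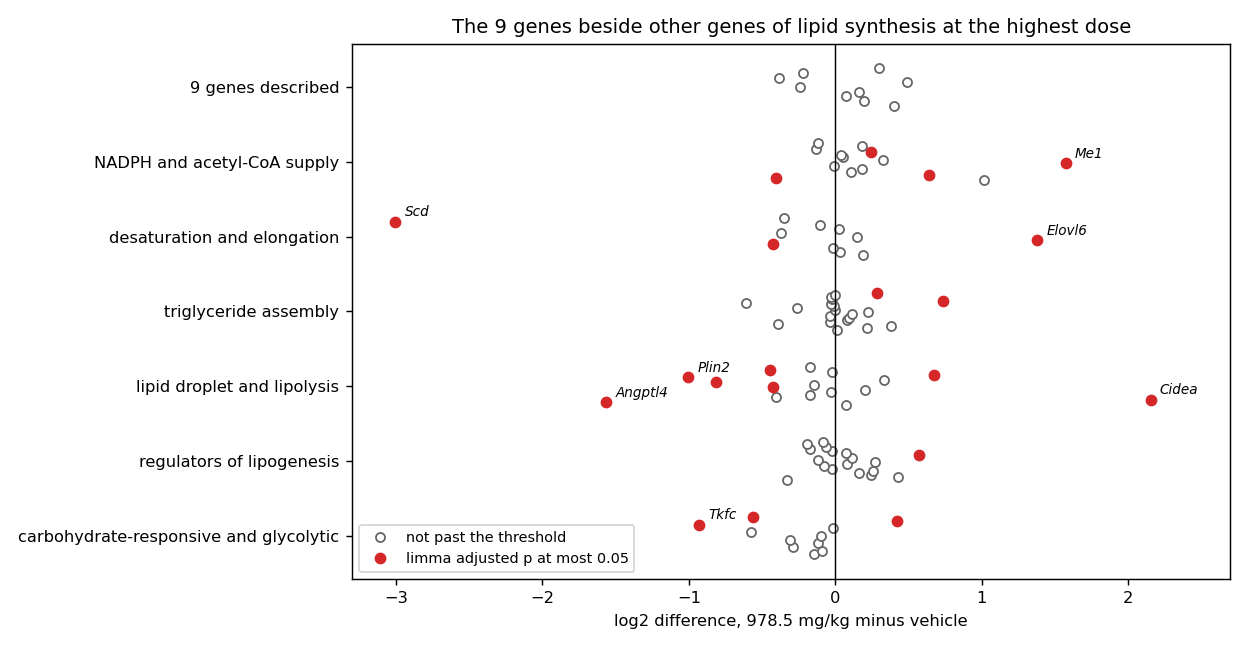
Log2 difference of 978.5 mg/kg from the vehicle (x axis) for the 9 genes and for 6 lists of other genes of lipid metabolism (rows); filled dots passed limma at an adjusted p of at most 0.05, open dots did not, and called genes with a size above 0.9 are named. The 9 genes lie between -0.38 and 0.49, none of them filled.

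Of 18 further regulators of lipogenesis, 1 rose and 0 fell at 978.5 mg/kg, with a median of 0.03, a share below that of all genes (10.2%). It was Pparg, a nuclear receptor of fat storage (0.57 ± 0.17, limma adjusted p = 0.034), and its call was lost without any of 6 single arrays, most clearly replicate 2 (0.49, limma adjusted p = 0.129). Of 11 measured carbohydrate-responsive and glycolytic genes, among which are targets of the protein that Mlxipl encodes, 1 rose and 2 fell, with a median of -0.14 and means below the vehicle in 10 of 11. Tkfc, which phosphorylates sugars of fructose breakdown, stood at 10.37, 10.00 and 9.93, all below the vehicle range of 10.66 to 11.43 (-0.93 ± 0.18, limma adjusted p = 0.00209). Txnip, a glucose-induced protein, fell by 0.56 ± 0.15 (limma adjusted p = 0.022) and the transketolase Tkt rose by 0.42 ± 0.12 (limma adjusted p = 0.0265). Without replicate 1 of that dose these calls were lost (limma adjusted p = 0.119 for Txnip and 0.161 for Tkt), as was that of Txnip without replicate 3 (0.0742), and that of Tkt without replicate 3 (0.0813) or vehicle replicate 1 (0.0525). At 61.2 and 122.5 mg/kg 0 genes of these 6 lists passed in limma, and by unadjusted limma p under 0.05 between 0 and 4 genes of a list did.

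Lists that follow feeding and time of day were set beside the 9 genes because their transcripts do so too. Of 10 measured genes of fasting and refeeding, 0 passed at any single dose in limma (between 1 and 6 by unadjusted p under 0.05), and 3 fell in the trend over dose ranks: Cpt1a, the gate of mitochondrial fatty acid oxidation (-0.19 ± 0.05 per rank, limma adjusted p = 0.0201), the pyruvate dehydrogenase kinase Pdk4 (-0.22 ± 0.06 per rank, limma adjusted p = 0.021) and Bdh1 of ketone body metabolism (-0.09 ± 0.03 per rank, limma adjusted p = 0.0268). The slope of Cpt1a did not pass without replicate 2 at 978.5 mg/kg (limma adjusted p = 0.0545), nor that of Bdh1 without any of 3 single arrays (0.0797 without the same replicate). In the trend 5.12% of all genes fell.

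Of 15 measured clock genes, 0 passed in limma at 61.2 and 122.5 mg/kg (1 and 5 by unadjusted p under 0.05), 2 rose and 2 fell at 244.6 mg/kg, 6 rose and 2 fell at 489.2 mg/kg and 6 rose and 3 fell at 978.5 mg/kg, where 10.2% of all genes were called. Dbp, an output factor of the clock, stood at 8.62, 9.23 and 8.11 at 978.5 mg/kg, against 5.44 to 6.10 in the vehicle (7.32-fold, limma adjusted p = 0.000478). Npas2, a relative of Clock, stood at 7.04, 7.06 and 7.52 there, against 8.77 to 9.11 in the vehicle, and was already lower at 244.6 mg/kg (-0.81 ± 0.17, limma adjusted p = 0.0102, a call lost without either of 2 single arrays, up to 0.152 without replicate 1 of that dose). Nr1d1, a repressor within the clock that also acts on lipid genes, rose by 1.82 ± 0.32 at 978.5 mg/kg (limma adjusted p = 0.00121). The treated arrays of Dbp and Npas2 at the highest dose lay beyond all vehicle arrays.

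Genes of cholesterol synthesis, driven by the sister factor SREBP2, were measured beside those of SREBP1. Of 13 measured, 9 rose and 0 fell at 978.5 mg/kg, where 6.18% of all genes rose and 4.07% fell. The list's median was 0.73, whereas that of the 9 lipid synthesis genes was 0.16. The largest rise was that of Msmo1 (1.19 ± 0.23, limma adjusted p = 0.00226), a call that held when any single array was left out. Some of the other calls rest on single arrays. Without replicate 1 of that dose, Idi1, Sqle and Mvd did not pass (limma adjusted p = 0.0538, 0.102 and 0.236). In this list the omission of single arrays was examined for the named genes alone.

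Markers of other cell types moved at the same dose, where 6.18% of all genes rose and 4.07% fell. In lists this short, a count of 1 does not stand apart from these shares. Of 4 red blood cell markers 3 fell, with a list median of -1.40, and the log2 summed signal of the list was 12.01 to 12.80 at 978.5 mg/kg and 12.86 to 14.20 in the vehicle, without overlap. Alas2, of haem synthesis in red cell precursors, fell by 1.48 ± 0.34 and the beta globin Hbb by 1.36 ± 0.34 (limma adjusted p = 0.00809 and 0.0155). Without replicate 3 of that dose neither passed (limma adjusted p = 0.0849 and 0.105), nor did the third, Hba-a3 (0.0571), and Hbb also missed the threshold without replicate 1 (0.0538). Of 8 stellate cell markers 2 fell, with a list median of -0.31 and a summed signal of 11.51 to 12.00 at 978.5 mg/kg and 11.82 to 12.44 in the vehicle. They were the growth factor receptor Pdgfrb (-0.74 ± 0.16, limma adjusted p = 0.00518) and Reln (-0.44 ± 0.13, limma adjusted p = 0.0398, lost without any of 6 single arrays, up to 0.23 without replicate 1). Among 9 macrophage markers 1, the scavenger receptor Cd163, fell (-0.77 ± 0.21, limma adjusted p = 0.0209, and 0.113 without replicate 1), with a list median of -0.62. The means of all 9 lay below the vehicle, and 7 had an unadjusted limma p under 0.05, beside 24.7% of all genes. The log2 summed signal of that list was 12.74 to 13.18 at 978.5 mg/kg and 13.24 to 13.81 in the vehicle, again without overlap. Of 5 bile duct markers 1, Epcam, rose, while the means of the other 4 lay below the vehicle, with a list median of -0.10. Of 8 lymphocyte, 6 endothelial and 9 hepatocyte markers 0 passed in limma at that dose (4, 0 and 2 by unadjusted p under 0.05), with medians of -0.22, -0.25 and -0.06. The part of feeding, clock or cell type transcripts in the levels of the 9 genes was not tested.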

How the data were processed

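Liver RNA from 21 arrays was analysed, with 3 at each of 5 doses and 6 of the vehicle, grouped by the labels. The authors deposited log2 signals, which per the submitters' processing notes come from robust multi-array averaging (RMA); its version was not given in the sources at hand. Of 31099 probe sets, 20832 had exactly 1 gene in the probe table, 436 several and 9831 none, and only the first kind was used. For each of the 14218 genes the highest probe set by mean was taken. No further scaling was applied. Tests used limma 3.58.1 under R 4.3.3, with 1 mean per group over all arrays (15 residual degrees of freedom), contrasts of each dose with the vehicle and of 978.5 with 61.2 mg/kg, an F test and a trend on dose rank, with Benjamini-Hochberg adjustment over all genes at 0.05. Correlations between genes used deviations from group means, permuted within groups, in Python 3.11.15 with scipy 1.17.1. The scripts were tested on simulated data.

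All 9 genes are named. Of each other list up to 4 genes are named, those past the threshold at any dose or in the trend with the largest difference at 978.5 mg/kg, and genes set beside one of the 9. Pattern likeness names the 2 genes with the highest Pearson r. The 9 genes and the lists were chosen with earlier results of these data known. Nothing in the labels says more of the replicates than that they are separate samples, so p-values measure the spread between these samples. The number of arrays limits the precision.

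Alternatives were averaging the probe sets per gene, testing all probe sets, genes above the median level, limma's trend and robust options, weighted arrays, centring on array medians, further quantile scaling, blocking on the replicate number, omission of single arrays, fits on the compared arrays alone, and, for the trend, dose in mg/kg and treated arrays alone.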

Additional observations from a re-analysis of the deposited data

Results flagged for a closer look

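In 56 genes, the 9 lipid synthesis genes among them, the 6 vehicle arrays were examined for a value that lies apart from the rest by Dixon's criterion, which flags about 1 in 20 groups by chance. Values of 4 genes met it. Srebf1 stood at 10.03 in vehicle replicate 6, and the other vehicle arrays stood between 11.21 and 11.84, so that the gap took 0.649 of the whole range. Pnpla3 stood at 6.70 in vehicle replicate 3, with the other vehicle arrays between 5.60 and 5.84 (0.783 of the range), and the same array held the highest vehicle signals of Fasn and Acly. The clock gene Per3 stood at 4.83 in vehicle replicate 2, with the others between 5.26 and 5.46 (0.688 of the range). Hbb, the beta globin of red blood cells, stood at 12.34 in vehicle replicate 1, with the others between 13.22 and 13.72 (0.637 of the range).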

How the results depend on the processing

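The count of the 9 genes past the threshold was 0 at each dose, in the contrast of 978.5 with 61.2 mg/kg and in the F test under every alternative run, with 1 exception, and leaving out each of the 21 arrays in turn gave 0 to 0 in each of these. The exception was the replicate number as a replicate block, which gave 1 at 978.5 mg/kg, Mlxipl (-0.56, limma adjusted p = 0.0413), and also 1 in the trend, Mlxipl again (-0.10, limma adjusted p = 0.0443). In the trend, leaving out single arrays gave 0 to 1, the 1 being Mlxipl without vehicle replicate 4. Replicate numbers 4 to 6 occur in the vehicle alone, so with the block the vehicle mean rests on its replicates 1 to 3. Replicate 4, the lowest vehicle array in Mlxipl, is among those left out. The labels do not say whether the numbers pair the samples. Deviations of same-numbered arrays had a median correlation of 0.06 over 45 pairs, beside -0.02 for other numbers. These 45 values ran from -0.23 to 0.37, with 17 over 0.1, and they cannot settle whether samples were paired. The block moved Fasn at 978.5 mg/kg to -0.04. Of 63 differences and slopes, 33 kept their sign under all alternatives and 30, of a size up to 0.40, changed it under at least 1. Over 2136 fits of a member under an alternative, 3 calls were gained. The count of correlated pairs went to 1 without the 2 farthest arrays, where it was 6 with all. Beyond the vehicle arrays that the block leaves out, the causes of these changes were not tested.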
